A study of Mus musculus with 8 samples.

Results

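C030037D09Rik, Prmt2, Rwdd3 and Sox2ot are 4 genes that each had 2 transcripts whose probe signals went in opposite directions between strains. The comparison was of the brainstems of DBA/1 mice with those of C57BL/6 controls. For each gene the study listed 2 probes of a long noncoding RNA (lncRNA) and mRNA array. The set thus holds 8 of the 60804 probes in the authors' table of normalized values. The members were taken from the transcripts that the study listed as different between the strains at a fold of at least 2 and an unadjusted p below 0.05. Of 1179 listed probes that are named and were tested here, 41 genes had more than 1. All listed probes were higher in DBA/1 in 8 of these genes and lower in 27, and 6 had probes in both directions. The set holds 4 of the 6, out of 1123 named genes with a listed probe, and the other 2, Gm14204 and Xaf1, are not described. Because the strain difference on these 8 arrays chose the members, the direction and size of each probe's difference, and of the ratio between a gene's probes, are given as a description with no test.

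DBA/1 is an inbred strain in which loud sound can provoke a generalized seizure followed by respiratory arrest, and it serves as a model of sudden unexpected death in epilepsy. C57BL/6, which was the control, is the strain of the mouse reference genome. Each strain had 4 male mice of 5 weeks, 1 mouse per array. None of the mice of either strain had been tested for seizures, no gene had been altered and no drug was compared, although all were anesthetized with isoflurane before the whole brainstem was removed. The groups differ in their entire inbred genetic background, so that no strain difference can be assigned to 1 locus. The whole brainstem holds many cell types, and fewer cells that make a transcript cannot be told apart from less of it per cell. Among 33 marker genes of 8 cell types or regions, 2 had a named probe here. Tph2, the enzyme that makes serotonin in the raphe nuclei of the brainstem, was well above background on all 8 arrays, with log2 values from 9.38 to 11.6. Its mean was 11.39 ± 0.21 in DBA/1 and 9.76 ± 0.65 in C57BL/6 (SD, n = 4 each). A noncoding transcript of Slc6a4, the serotonin transporter gene, was well above background in 4 of 4 DBA/1 and 1 of 4 C57BL/6 mice, with means of 4.63 ± 0.40 and 3.05 ± 0.51 (SD, n = 4 each). Both had been listed by the study for their strain difference, both were higher in DBA/1, and the part of raphe content in the differences of the 4 genes was not tested.

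A single gene can give several RNAs through different start sites, splicing and polyadenylation sites, and an array probe reads only those RNAs that carry its sequence. The members differ in kind. Prmt2 encodes a protein arginine methyltransferase that also acts as a coactivator of nuclear receptors, and Rwdd3, also called RSUME, encodes a protein with an RWD domain that promotes attachment of SUMO to other proteins. Sox2ot is an lncRNA whose gene spans Sox2, the transcription factor of neural progenitors, and C030037D09Rik is an lncRNA beside Msi2, which encodes an RNA-binding protein of the Musashi family. Both protein-coding genes also give noncoding transcripts, each from the same strand and sharing exon sequence with the mRNA. The comparison within Prmt2 and Rwdd3 is thus between a probe listed for an mRNA and a probe listed for an lncRNA. Both listed Prmt2 transcripts span both Prmt2 probe regions, and Rwdd3 NM_028456 spans the region of the ENSMUST00000098650 probe. In C030037D09Rik, NR_038058 spans the region of the ENSMUST00000138007 probe. A probe may therefore also read the other RNA of its gene, which was not resolved.

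The sequences of the 8 probes are shown because they define which RNA was measured. Each probe had 60 bases, written 5′ to 3′ as the study's lists of transcripts gave them, on the strand of the RNA. Whole probes are shown for the noncoding genes, and the last 30 bases for Prmt2 and Rwdd3. Capitals mark AATAAA or ATTAAA, the hexamers that most often precede a polyadenylation site.
C030037D09Rik ENSMUST00000138007, higher in DBA/1: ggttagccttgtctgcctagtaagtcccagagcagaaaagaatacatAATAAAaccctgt
C030037D09Rik NR_038058, lower in DBA/1: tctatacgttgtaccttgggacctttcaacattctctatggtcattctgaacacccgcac
Prmt2 ENSMUST00000137857, higher in DBA/1: gagctctgctttcgaatacagcattaatgt
Prmt2 NM_001077638, lower in DBA/1: aagtaaagccccagttatgagacatgatca
Rwdd3 NM_028456, higher in DBA/1: cgagtcctgttttatggaatATTAAAcatg
Rwdd3 ENSMUST00000098650, lower in DBA/1: gattacatcaccaccaagctccacagggtt
Sox2ot uc029ukz.1, higher in DBA/1: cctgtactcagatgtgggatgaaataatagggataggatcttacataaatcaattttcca
Sox2ot ENSMUST00000173845, lower in DBA/1: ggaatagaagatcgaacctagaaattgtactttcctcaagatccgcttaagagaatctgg

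The probes of a gene did not resemble each other: the longest run of bases they shared was 5 in C030037D09Rik and Prmt2 and 6 in Rwdd3 and Sox2ot. An AATAAA began at base 48 of the C030037D09Rik probe that was higher in DBA/1, and an ATTAAA at base 51 of the Rwdd3 probe that was higher, and none of the 4 lower probes held either hexamer on this strand. Over all 1179 listed probes, 16.3% held AATAAA and 5.85% held ATTAAA on this strand, against 2.97% for each on the opposite strand. A hexamer in a probe is a description of its letters and not a mapped polyadenylation site.

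**Figure D1:**
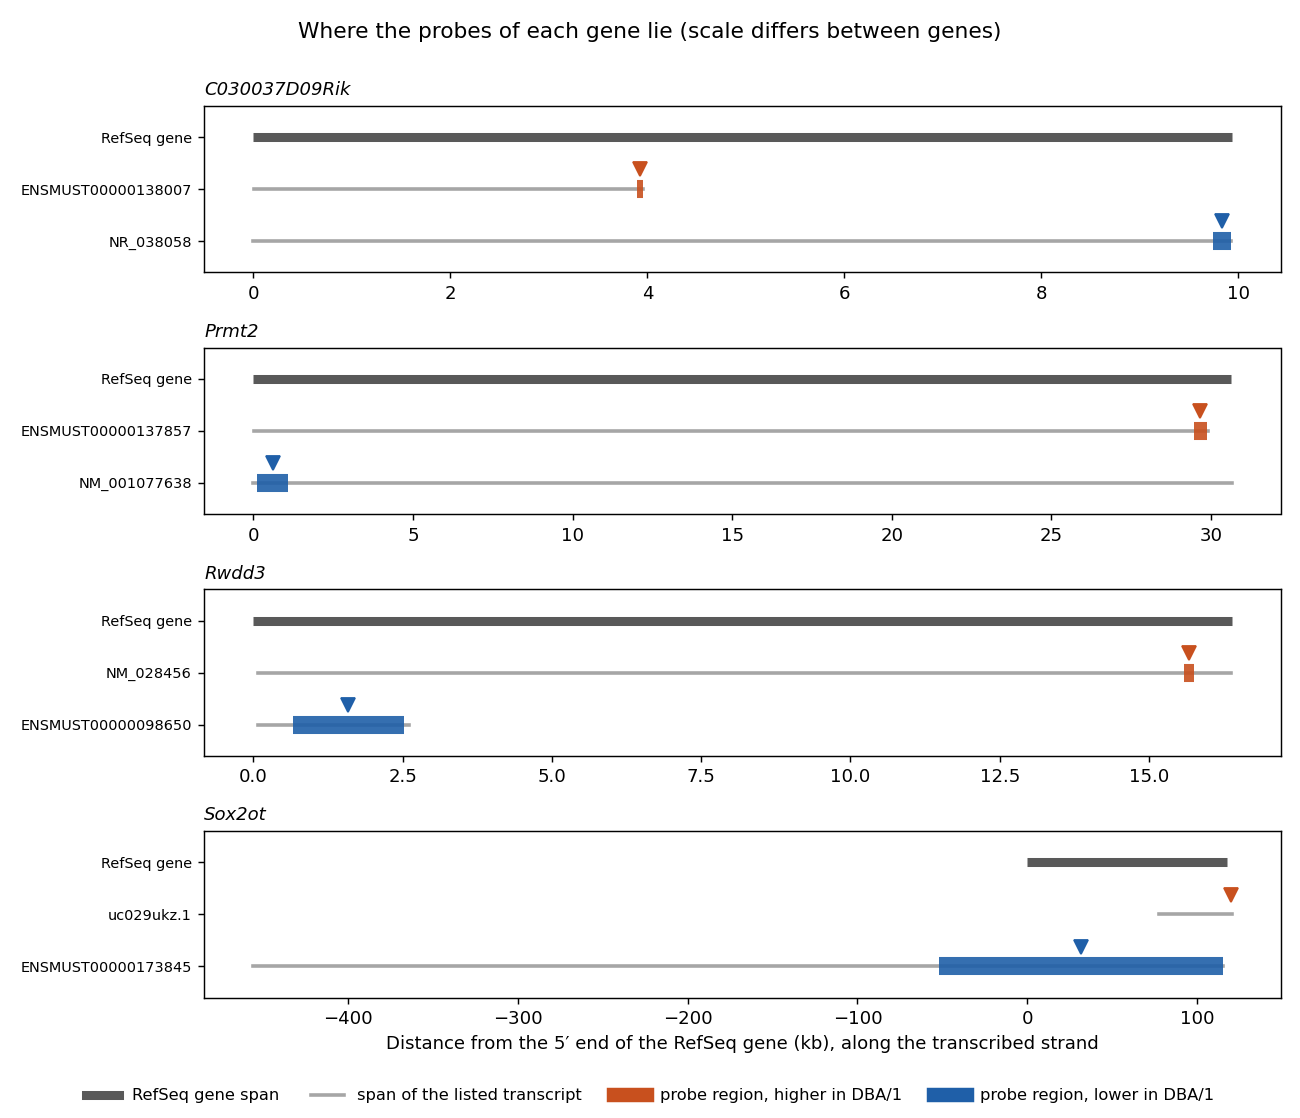
Position of each probe's listed region along its gene, in kilobases from the 5′ end of the RefSeq gene in the direction of transcription, with a scale of its own for each gene. Triangles mark the middle of each region, orange for the probe that was higher in DBA/1 and blue for the probe that was lower; in Prmt2, Rwdd3 and Sox2ot the higher probe lies nearer the 3′ end, and in C030037D09Rik it lies nearer the 5′ end.

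The listed position of a probe, in GRCm38, is a region that can span introns and was longer than the probe in all 8 cases, so that the exact bases and the splice junctions were not resolved. C030037D09Rik lies on the plus strand of chromosome 11, from 88718643 to 88728572 in RefSeq. Its listed transcripts start within 2 bases of each other and end 5972 bases apart. ENSMUST00000138007 has 3220 nt and ends at 88722600, where its probe region of 64 bases also ends. NR_038058 has 1056 nt and ends at 88728572, with its probe in the last 192 bases of the transcript's span. The 2 probes of C030037D09Rik thus lie at separate 3′ ends of transcripts with nearly the same start. The span of NR_038058 also holds the region of the ENSMUST00000138007 probe, and whether its exons do was not resolved. The RefSeq gene begins 336 bases from the start of Msi2, which is transcribed in the other direction.

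Prmt2 lies on the minus strand of chromosome 10, from 76207226 to 76237865. The region of the noncoding ENSMUST00000137857 probe (76207992 to 76208411) was 29.5 to 29.9 kb downstream of the 5′ end. That of the mRNA NM_001077638 (76236775 to 76237749) was 0.116 to 1.09 kb downstream. The Prmt2 probes thus lie at opposite ends of the gene.

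Rwdd3 lies on the minus strand of chromosome 3, from 121155397 to 121171781. The region of the mRNA NM_028456 probe (121156019 to 121156186) was 15.6 to 15.8 kb from the 5′ end, and the study's list gave NM_025637 as a further match of the same probe. The region of the noncoding ENSMUST00000098650 probe (121169265 to 121171111) was 0.67 to 2.52 kb from the 5′ end. The listed ENSMUST00000098650 spans 2525 bases and ends at 121169170, so that it does not reach the NM_028456 probe. The mRNA probe was therefore the 3′ one in Rwdd3 and the 5′ one in Prmt2.

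Sox2ot lies on the plus strand of chromosome 3, from 34560381 to 34677993, with Sox2 (34649995 to 34652461) inside it. The region of the uc029ukz.1 probe (34680577 to 34680682) was 120.2 to 120.3 kb from the RefSeq 5′ end and past the RefSeq 3′ end. That of the ENSMUST00000173845 probe ran from 34508591 to 34675668, a span of 167078 bases that starts before the RefSeq gene. This span holds introns, so that the probe's place in Sox2ot is known least well of the 8.

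**Figure D2:**
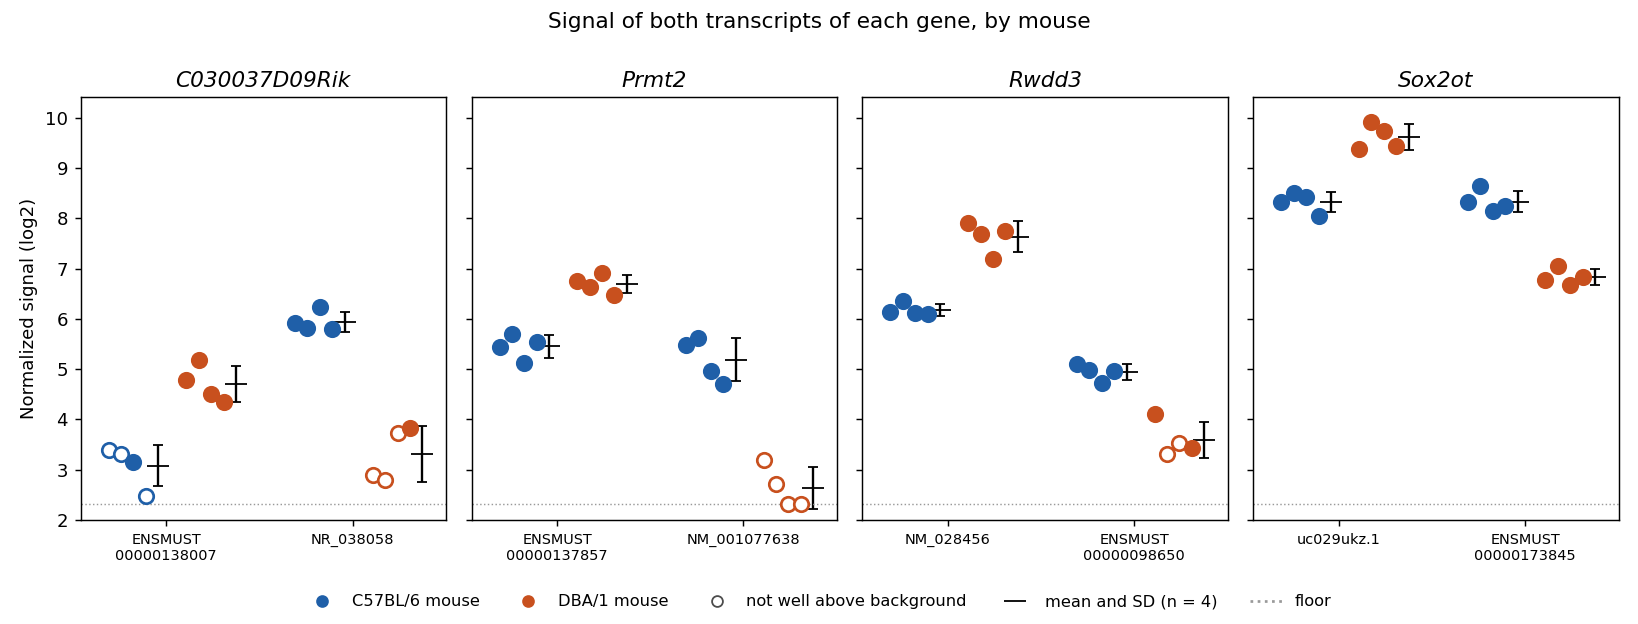
Normalized log2 signal of each probe in each mouse, with 1 panel per gene, points for the 4 C57BL/6 and the 4 DBA/1 mice and bars for the mean ± SD. Within each probe the strains do not overlap, and filled points are well above background; most open points belong to the dimmer strain of the C030037D09Rik probes and to DBA/1 at the Prmt2 mRNA probe.

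All 8 probes separated the strains without overlap. Among the 31872 tested probes measured on all arrays the strains did not overlap at 11.4%, of which those with DBA/1 higher made up 4.17% and those with DBA/1 lower 7.24% of the probes. Of all 33179 tested probes, 4.37% passed the fold of 2 and unadjusted p below 0.05, 1.05% higher and 3.31% lower in DBA/1. Since the members were chosen by this contrast, nothing is read from their count. Of the 4 probes well above background in every mouse, 3 were higher in DBA/1, at 2.36-fold for Prmt2 ENSMUST00000137857, 2.74-fold for Rwdd3 NM_028456 and 2.44-fold for Sox2ot uc029ukz.1, and Sox2ot ENSMUST00000173845 was 2.83-fold lower. The other 4 were not well above background in 2 to 4 mice of their dimmer strain, so that the size of their differences is less certain. The study's threshold was a fold of 2, so that the Prmt2 probe at 2.36-fold was the one nearest to it. No probe of the member genes outside that threshold is named here.

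In C030037D09Rik the probe nearer the 5′ end was higher in DBA/1 and the one farther away was lower. The log2 signal of ENSMUST00000138007 in the C57BL/6 mice was 3.40, 3.30, 3.15 and 2.49. In the DBA/1 mice it was 4.78, 5.18, 4.50 and 4.35. Every DBA/1 mouse was above every C57BL/6 mouse, with 0.95 between the nearest, and the probe was well above background in 4 of 4 DBA/1 mice but in 1 of 4 C57BL/6 mice. The mean was 4.71 ± 0.36 in DBA/1 and 3.08 ± 0.41 in C57BL/6 (SD, n = 4 each), a log2 difference of 1.62 with a standard error of 0.25. NR_038058 ran the other way, with 5.93, 5.81, 6.23 and 5.80 in C57BL/6. Its values in DBA/1 were 2.89, 2.79, 3.74 and 3.84, and 1 of these 4 mice, replicate 4, was well above background. The mean was 5.94 ± 0.20 in C57BL/6 and 3.31 ± 0.55 in DBA/1 (SD, n = 4 each), a log2 difference of -2.63 with a standard error of 0.26. On the linear scale NR_038058 had 53.2 to 88.0 intensity units in C57BL/6 and 5.58 to 14.5 in DBA/1, against 7.10 to 10.97 and 14.7 to 31.8 for ENSMUST00000138007. Each strain thus had 1 of the 2 probes well above background in every mouse, and a different one.

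In Prmt2 the mRNA probe near the 5′ end was lower in DBA/1 and the noncoding probe near the 3′ end was higher. NM_001077638 had log2 values of 5.48, 5.62, 4.96 and 4.70 in C57BL/6, and 3.20, 2.72, 2.32 and 2.32 in DBA/1. It was well above background in all 4 C57BL/6 mice and in 0 of the DBA/1 mice, of which replicates 3 and 4 were at the floor, a pattern of detection found at 1.27% of tested probes. Only a bound can be given for such a probe. The signal was at least 2.45-fold lower in DBA/1, with the limit of each array set at its brightest probe that was not well above background. The measured means were 5.19 ± 0.43 in C57BL/6 and 2.64 ± 0.42 in DBA/1 (SD, n = 4 each), for a fitted log2 difference of -2.55. In DBA/1 it rests on spots that were not well above background. By the scanner's less strict flag, for a positive and significant signal, these and all other of the 64 member spots passed. The error that the scanner software attached to these spots in DBA/1 was 30.7%, 39.1%, 96.9% and 51.6% of the signal. The noncoding ENSMUST00000137857 was well above background in every mouse. It had 5.44, 5.69, 5.13 and 5.54 in C57BL/6, and 6.75, 6.64, 6.90 and 6.47 in DBA/1, with a gap of 0.78 between the nearest mice. Its mean was 6.69 ± 0.18 in DBA/1 and 5.45 ± 0.24 in C57BL/6 (SD, n = 4 each), a log2 difference of 1.24 with a standard error of 0.18. The signal of the 3′ Prmt2 probe was therefore higher in DBA/1, while that of the 5′ probe was not well above background there.

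In Rwdd3 it was the mRNA probe that was higher. NM_028456 had 6.13, 6.35, 6.12 and 6.10 in C57BL/6, and 7.90, 7.69, 7.19 and 7.75 in DBA/1. The C57BL/6 mice lay close together and all below the DBA/1 mice. The mean was 7.63 ± 0.31 in DBA/1 and 6.18 ± 0.12 in C57BL/6 (SD, n = 4 each), a log2 difference of 1.46 with a standard error of 0.19. Before normalization between arrays the strains overlapped at this probe, with 95.8 intensity units in DBA/1 replicate 3, the dimmest array, and 105 in the brightest C57BL/6 mouse. The noncoding ENSMUST00000098650 had 5.10, 4.99, 4.72 and 4.96 in C57BL/6. It had 4.11, 3.30, 3.52 and 3.42 in DBA/1, well above background in replicates 1 and 4. The gap of 0.61 between the nearest mice was the narrowest of the 8 probes. The mean was 4.94 ± 0.16 in C57BL/6 and 3.59 ± 0.36 in DBA/1 (SD, n = 4 each), a log2 difference of -1.35 with a standard error of 0.20.

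Sox2ot had the brightest probes of the set, and both were well above background in every mouse. The uc029ukz.1 probe had 8.33, 8.49, 8.43 and 8.05 in C57BL/6, and 9.37, 9.92, 9.73 and 9.43 in DBA/1. All DBA/1 mice were higher, by at least 0.87. The mean was 9.61 ± 0.26 in DBA/1 and 8.33 ± 0.20 in C57BL/6 (SD, n = 4 each), a log2 difference of 1.29 with a standard error of 0.19. ENSMUST00000173845 had 8.32, 8.64, 8.14 and 8.23 in C57BL/6, and 6.76, 7.05, 6.67 and 6.84 in DBA/1. Here all DBA/1 mice were lower, by at least 1.09. The mean was 8.33 ± 0.22 in C57BL/6 and 6.83 ± 0.16 in DBA/1 (SD, n = 4 each), 2.83-fold lower in DBA/1, with a standard error of 0.18 on the log2 scale. On the linear scale uc029ukz.1 had 339 to 425 intensity units in C57BL/6 and 519 to 845 in DBA/1, and ENSMUST00000173845 had 326 to 488 and 67.5 to 122. Sox2ot was thus the gene whose opposite differences were both measured far from the background of the array.

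The ratio of a gene's 2 probes within each mouse cancels a factor by which a whole array is brighter or dimmer, but not an added background. Since probes differ in brightness, a ratio does not say which transcript was more abundant, and only its difference between mice is read. Each ratio is given as the log2 signal of the probe higher in DBA/1 minus that of the probe lower in DBA/1.

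**Figure D3:**
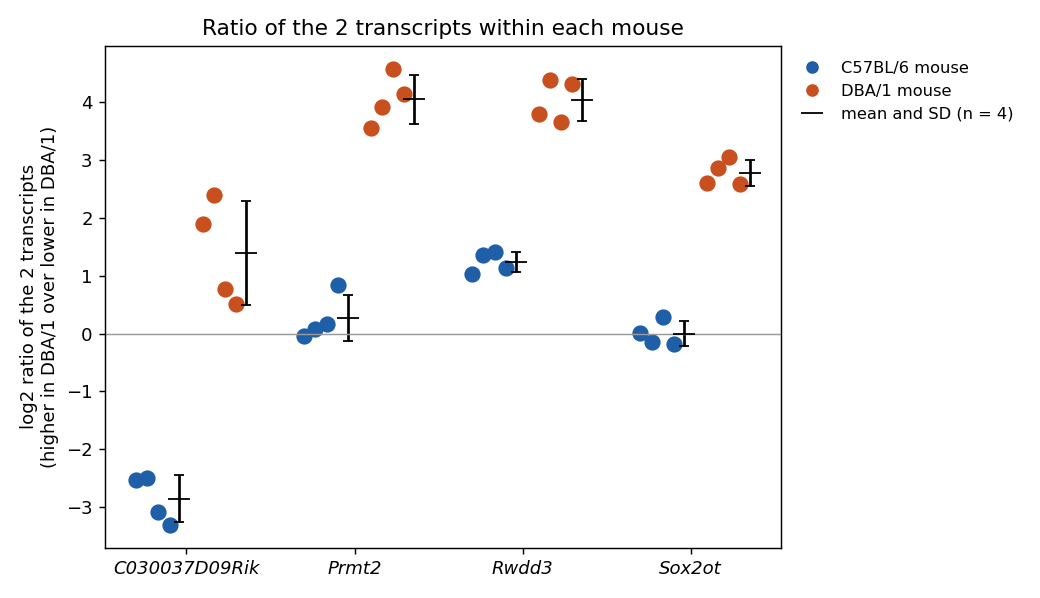
Log2 ratio of the probe higher in DBA/1 to the probe lower in DBA/1 of each gene, 1 point per mouse with the mean ± SD of each strain (n = 4). The strains are separated by 2.26 to 3.02 log2 units in all 4 genes, with every DBA/1 mouse above every C57BL/6 mouse. The place of a point against 0 also reflects the brightness of the probes.

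The C030037D09Rik ratio was -2.53, -2.50, -3.08 and -3.31 in C57BL/6 and 1.89, 2.39, 0.77 and 0.51 in DBA/1. Every DBA/1 mouse was above every C57BL/6 mouse. The means were -2.86 ± 0.40 and 1.39 ± 0.90 (SD, n = 4 each), a log2 difference of 4.25 whose size is uncertain, since in each strain 1 of the 2 probes was well above background in only 1 of 4 mice. The Prmt2 ratio was -0.04, 0.07, 0.17 and 0.84 in C57BL/6 and 3.55, 3.92, 4.58 and 4.15 in DBA/1. The means were 0.26 ± 0.40 and 4.05 ± 0.43 (SD, n = 4 each), a log2 difference of 3.79. The DBA/1 values rest on the mRNA probe, which was not well above background there.

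The Rwdd3 ratio was 1.04, 1.36, 1.40 and 1.14 in C57BL/6 and 3.79, 4.39, 3.66 and 4.32 in DBA/1. Its means were 1.23 ± 0.18 and 4.04 ± 0.37 (SD, n = 4 each), which differed by 2.81, with ENSMUST00000098650 well above background in 2 of 4 DBA/1 mice. The Sox2ot ratio was 0.01, -0.14, 0.29 and -0.19 in C57BL/6 and 2.61, 2.86, 3.06 and 2.59 in DBA/1. Its means of -0.01 ± 0.22 and 2.78 ± 0.23 (SD, n = 4 each) differed by 2.79 or 6.90-fold. Sox2ot was the gene whose ratio rested on spots well above background in every mouse. Computed from the scanner intensities with neither a floor nor normalization between arrays, an alternative added after the values were seen, the differences were 4.29 for C030037D09Rik, 3.92 for Prmt2, 2.79 for Rwdd3 and 2.77 for Sox2ot. Both probes of a gene lay on the same side of their strain means in 2 of 8 mice for C030037D09Rik and in 4 of 8 for each of the others. In C030037D09Rik they lay on opposite sides in every DBA/1 mouse. With 4 mice per strain and dim spots, such a count cannot show whether the probes vary together.

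The size of these differences depends on the signal measure and background treatment of dim spots. An alternative took the median spot signal, with no floor, in place of the processed one. Its background correction was model-based (normexp with an offset of 50), which compresses dim signals. The ratio differences were then 1.11 for C030037D09Rik, 1.24 for Prmt2, 1.19 for Rwdd3 and 2.33 for Sox2ot. Every direction stayed. At uc029ukz.1 the log2 difference was 1.20 under this alternative and 1.29 as reported.

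**Figure D4:**
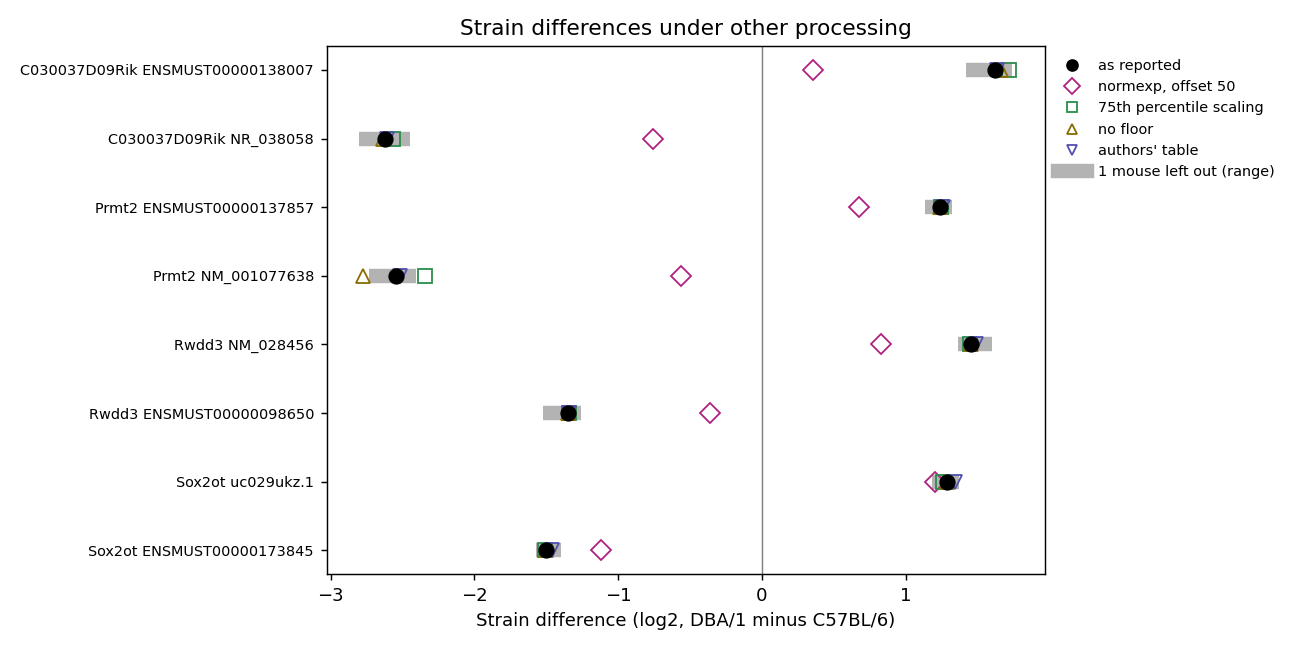
Log2 strain difference of each of the 8 probes, DBA/1 minus C57BL/6, as reported (filled circles) and under 4 alternatives (open symbols), with a grey bar for the range when 1 mouse is left out. No symbol crosses 0, and the normexp diamonds lie nearer 0 than the other symbols, least so for uc029ukz.1, at 1.20 against 1.29.

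All 8 arrays lay on 1 slide and were read in 1 scan, with 1 row of the slide for each strain, so that row and strain cannot be told apart. The C57BL/6 arrays had 33045 to 36162 probes well above background and the DBA/1 arrays 29301 to 33350, and the 75th percentile of intensity was 73.5 to 112 and 50.1 to 76.1. The DBA/1 arrays were dimmer, which is the direction of the 4 lower probes and not of the 4 higher ones, and the part of brightness in these differences was not tested. Of the 64 spots of the 8 probes on the 8 arrays, 52 were well above background, 0 were saturated and 0 were outliers. Of the 8 probes, 4 were well above background on all 8 arrays, against 79.2% of all tested probes.

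Among the transcripts that the study listed within 1 Mb of a member, which were all chosen by the same strain contrast, 1 lay inside a member gene. The lncRNA AK080448 (chromosome 3, 34565264 to 34572202) is transcribed from the minus strand inside the RefSeq span of Sox2ot. Its log2 signal was 4.01, 3.45, 4.05 and 4.27 in C57BL/6 and 5.63, 5.71, 5.81 and 5.79 in DBA/1, well above background in all 8 mice. It was thus higher in DBA/1 (5.74 ± 0.08 against 3.94 ± 0.35, SD, n = 4 each), like uc029ukz.1 and unlike ENSMUST00000173845. Near Prmt2, the listed Dip2a transcript, 25.2 kb away, had a log2 difference of -1.95. Near C030037D09Rik, Gm11508 (2.73) and both listed transcripts of Cuedc1 (1.57 and 1.80) were higher in DBA/1 and Epx, eosinophil peroxidase, was well above background in all C57BL/6 mice and in 0 of the DBA/1 mice, the nearest of them 525 kb away. No listed transcript lay within 1 Mb of Rwdd3. No probe of Msi2 or Sox2 and no further probe of the member genes is named in the tables used here. The same holds for 42 genes of arginine methylation, SUMO conjugation and neural progenitors, of which 0 could be counted. Probe names came only from the study's lists of differing transcripts. Unnamed genes may therefore be on the array with a smaller strain difference or none.

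By the root mean square difference of centred log2 values over the 8 mice, the listed transcript nearest to each probe was always one with the same direction. Nearest to C030037D09Rik ENSMUST00000138007 was a noncoding transcript of Grin2b, an NMDA receptor subunit gene, at 0.19, and nearest to NR_038058 was one of Tatdn3 at 0.31. For Prmt2 they were a noncoding transcript of Oxsr1, a stress-responsive kinase gene, at 0.13 for ENSMUST00000137857 and Zfp146, a zinc finger gene, at 0.11 for the mRNA. For Rwdd3 they were a noncoding transcript of Mettl3, the catalytic subunit of the RNA m6A methyltransferase, at 0.13 for the mRNA, and the lncRNA AK046725 at 0.14 for ENSMUST00000098650. For Sox2ot they were Ociad1 at 0.10 for uc029ukz.1 and Cml5 at 0.11 for ENSMUST00000173845. With 8 mice in 2 strains and 1146 listed transcripts to choose from, each of which was listed for its own strain difference, the measure mostly compares the size of that difference.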

How the data were processed

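The authors hybridized RNA of whole brainstems, 4 from each strain, to a one-color Agilent array (Arraystar Mouse lncRNA V3.0) after removal of ribosomal RNA and random-primed labelling with Cy3. The deposited scanner files hold spot intensities from Agilent Feature Extraction (11.0.1.1), background-subtracted but not normalized between arrays, and, per the file headers, other columns hold flags for spots above background, saturated or outlying. The authors' deposited table holds log2 values after quantile normalization in GeneSpring. Probes, transcripts, GRCm38 positions and sequences came from the study's lists of differing transcripts, whose columns of fold changes and p-values were not used. The lists name only part of the array.

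Here, control spots and outliers were removed, repeated spots were averaged per probe, and processed intensities were given a floor of 5, put on the log2 scale and quantile-normalized. Probes well above background on at least 4 of 8 arrays entered limma (3.58.1, R 4.3.3), DBA/1 minus C57BL/6, with Benjamini-Hochberg adjustment over 33179 probes. This gave 1449 probes past a fold of 2 with unadjusted p under 0.05, and 1270 with adjusted p under 0.05. The fit was tested on simulated data. Values of the members differed from the authors' table by a median of 0.0217 (log2). A fold is on the scale of the floored values, and its size at dim probes depends on the signal measure and background treatment. For the Prmt2 mRNA probe the log2 difference was -2.55 as reported, -2.77 with no floor and -0.56 with normexp. Gene positions came from RefSeq (GRCm38.p6). The number of arrays limits the precision. The sequence of the DBA/1 genome at the probes was not analysed here.

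The members and the gene lists were chosen with earlier results of these data known. The rule for named genes took the 4 members with both probes, other named probes of these genes, Msi2 and Sox2, list members past the adjusted criterion, and the nearest profile to each probe. Listed neighbours within 1 Mb were chosen after their values were seen. Alternatives covered normalization, floor, background correction, outlier spots, filters, fold, test, the authors' table, a replicate block and leaving out each mouse.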

Additional observations from a re-analysis of the deposited data

Results flagged for a closer look

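In the C57BL/6 mice, 1 value stood apart from the others of its group. The log2 signal of Rwdd3 NM_028456 in replicate 2 was 6.35, and its gap to the next mouse was 0.856 of the range of the 4 mice. The other 3 lay between 6.10 and 6.13, so that the gap rests on a narrow group. Chance gives such a gap in about 1 of 20 groups, and 28 groups of 4 mice were examined, so that 1 such gap is not unusual.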

How the results depend on the processing

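The 8 probe differences and the 4 ratio differences gave 184 values under the alternatives. Those that left out 1 mouse could not reverse, since the strains did not overlap in any of them. A replicate block cannot change a difference in this balanced design. Of the 184 values, 0 changed direction and 11 moved by more than the SD between mice, all with normexp. There the log2 differences were 0.35 (ENSMUST00000138007) and -0.76 (NR_038058) for C030037D09Rik, 0.68 (ENSMUST00000137857) and -0.56 (NM_001077638) for Prmt2, 0.83 (NM_028456) and -0.36 (ENSMUST00000098650) for Rwdd3 and -1.12 (ENSMUST00000173845) for Sox2ot, with ratio differences of 1.11, 1.24, 1.19 and 2.33. The count of tested probes past a fold of 2 with unadjusted p under 0.05, 1449, became 381 with normexp, 688 with only probes well above background on all 8 arrays, 3498 at a fold of 1.5 and 576 at a fold of 3. With adjusted p, 1270 became 329, 633 and 567 under the first, the second and the last of these. The methods' t-test gave 1365, and 888 after adjustment. Leaving out each mouse gave 1410 to 1676, and 1111 to 1397 with adjusted p, and ratio differences of 3.91 to 4.54 (C030037D09Rik), 3.61 to 3.98 (Prmt2), 2.69 to 2.93 (Rwdd3) and 2.69 to 2.89 (Sox2ot). With the limit of each array set at its dimmest probe that was well above background, the Prmt2 mRNA probe was 4.09-fold lower in DBA/1, in place of 2.45-fold. Some probes that were not well above background were brighter than this limit, so that 4.09-fold is not a bound.

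Mice of the same number shared a slide column, but nothing in the labels pairs them, so that the numbers were not taken as a pairing. Deviations from the strain means correlated over probes at 0.0217 to 0.376 between mice of the same number. Between mice of different numbers they correlated at -0.289 to 0.102, and 6 of 8 mice correlated best with their own number. The part of the slide column in these values was not tested. A replicate block gave 1451 probes, and 1325 with adjusted p. The block cannot change the member differences in this balanced design, so that nothing is read from their staying the same. Within the 4 slide columns the ratio difference was 3.82 to 4.90 for C030037D09Rik, 3.31 to 4.42 for Prmt2, 2.26 to 3.19 for Rwdd3 and 2.59 to 3.00 for Sox2ot.

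Of the 8 probes, 4 were not well above background in every mouse, and their differences are the least certain in size. Nothing in the sources says whether the mice of a strain came from separate litters.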
